A study of Rattus norvegicus with 24 samples.

Results

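Neurotrophins and their receptors were followed through 6 genes of the 32883 reference genes in the tables. They are the ligand genes Bdnf and Ntf3, the Trk receptor genes Ntrk2 and Ntrk3, the p75 neurotrophin receptor gene Ngfr and the sortilin gene Sort1. The genes were chosen by symbol and by no rule on their measured values, although earlier results of these data were known. All 6 were found once in each table.

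Neurotrophins are secreted growth factors that neurons use for survival, dendrite growth and synaptic plasticity. Each mature ligand prefers one Trk receptor tyrosine kinase, BDNF binding TrkB and neurotrophin-3 binding TrkC, while the uncleaved proforms bind p75NTR together with sortilin. In the cortex, Bdnf is transcribed mainly by excitatory neurons and responds to their activity, and TrkB is made by neurons and, as a truncated form without the kinase, by astrocytes.

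Polyadenylated RNA of the frontal cortex was sequenced from 24 adult male Sprague-Dawley rats, 24 h after exposure. The Control group (0 mg/m3), the Low group (5 mg/m3) and the High group (80 mg/m3) held 8 rats each, and inhaled tungsten particles are named as the treatment of all 3. The labels give the tissue as frontal cortex, although their extraction text speaks of cell lines, and every title holds the word Repeat without saying what was repeated. One table per rat gives, for every gene, a coverage and an FPKM made by the authors with StringTie. Each rat is a separate library, and no further batch is named in the labels.

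Coverage, the mean read depth per base of a gene, was divided by its sum over the reference genes of the table and multiplied by 1000000. This value is called scaled coverage, and the FPKM column treated in the same way is called scaled FPKM. Both are per length, but they order the genes differently, so levels are compared between genes only within a column and as that column gives them. The tables hold no read counts, and no counting error could be given. In units of 1000000, coverage summed to 1.67 to 2.82 (Control), 1.64 to 3.07 (Low) and 1.77 to 2.67 (High). Markers of neurons, astrocytes, oligodendrocytes and microglia were present in every group, and 0 of 41 tested cell type markers passed the threshold in any comparison. Low tables list 0 assembled loci, against 46334 or more in each Control and High table, so the Low concentration and the kind of table cannot be told apart. Libraries 56 to 62, which are Control replicate 56 and 6 Low rats, had 5449 to 8103 units of scaled coverage on mitochondrial tRNA genes of the minus strand, against 84.9 to 155 in the other 17 libraries.

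On scaled coverage, Sort1 was the most abundant of the 6 genes, with a median of 215 over the 24 rats. Ntrk2 followed at 23.2, and these 2 genes kept their places in 24 of 24 rats. Ntrk3 (median 1.88), Ntf3 (1.23), Ngfr (0.994) and Bdnf (0.945) had overlapping ranges, and Ngfr exceeded Bdnf in only 12 of 24 rats. The FPKM column gave another order. There the medians were 202 for Sort1, 155 for Ntrk2, 36.0 for Ntrk3, 9.50 for Bdnf, 1.2 for Ntf3 and 0.930 for Ngfr, all on the scaled FPKM scale. Sort1 exceeded Ntrk2 in 14 of 24 rats on that scale, and Bdnf exceeded Ntf3 in 24 of 24. The place of Bdnf therefore depended on the column, from place 6 on scaled coverage to place 4 on scaled FPKM.

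**Figure D1:**
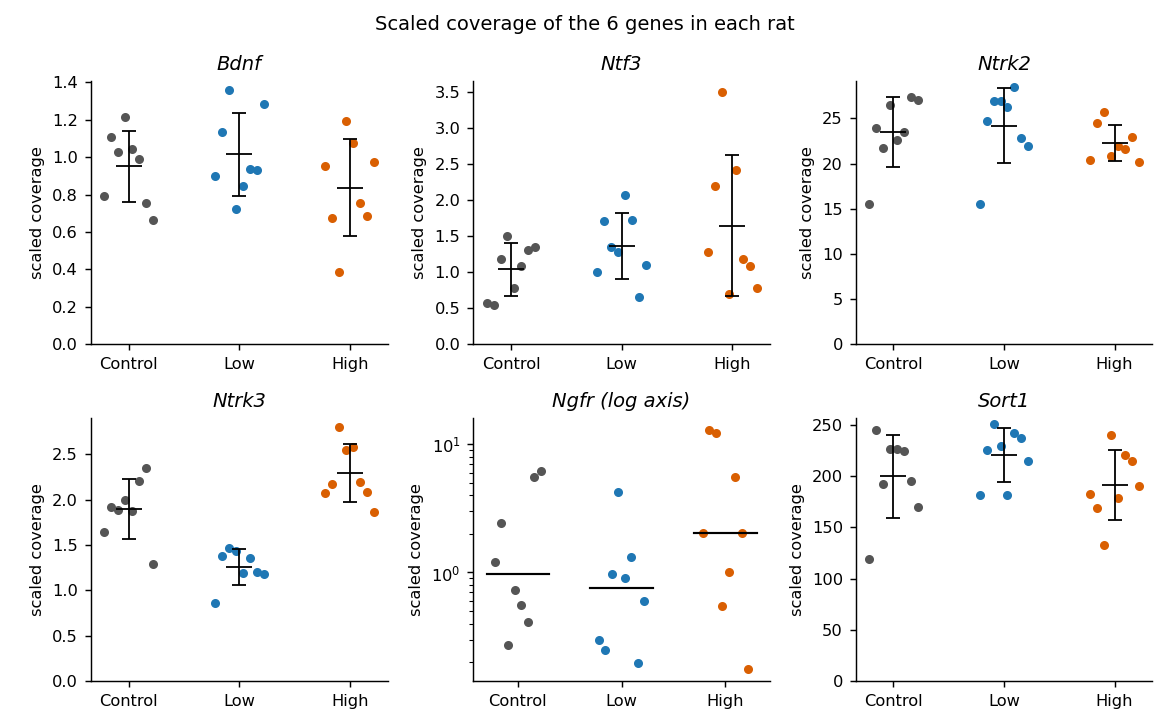
Scaled coverage (vertical axis, no unit) of each of the 6 genes in Control, Low and High rats, 1 point per rat and 8 rats per group. Bars give mean and SD from an axis starting at 0, except for Ngfr, whose axis is logarithmic and whose lines are medians. The 8 Low points of Ntrk3 lie below the 8 High points, while the groups overlap for the other 5 genes.

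Groups were compared with limma on log2(scaled coverage + 1) over 15644 genes, those whose mean reached 1, with Benjamini-Hochberg adjusted p-values and a threshold of 0.05. Adding 1 understates the change of low genes. In Low against Control 1 of the 5 tested genes passed, where 6.11% of all genes tested did. In High against Control 0 of 5 passed, against 0% of all genes (limma called 0 genes and exact Wilcoxon tests 0, while 330 genes had an unadjusted limma p under 0.05). In Low against High 1 of 5 passed, against 11.7% of all genes. The gene past the threshold was Ntrk3 in both comparisons. Bdnf, with a mean of 0.934, was under the minimum and was read from a fit with no filter, in which it did not pass. In that fit 4.54% of 26257 genes passed in Low against Control, 0% in High against Control (738 genes had an unadjusted p under 0.05) and 7.85% in Low against High. These are bulk samples, in which fewer cells of a type and less RNA per cell cannot be told apart.

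Bdnf (ENSRNOG00000047466, chromosome 3, 100768637 to 100819210, plus strand, positions as in the tables) encodes brain-derived neurotrophic factor. Its scaled coverage had a lowest, median and highest value of 0.667, 1.01 and 1.22 in Control, 0.723, 0.936 and 1.36 in Low, and 0.385, 0.853 and 1.19 in High. The 3 groups overlapped, and the lowest rat was a High rat. Low against High gave a log2 fold change of 0.14 (95% interval -0.05 to 0.33, limma adjusted p = 0.385 with no filter). Low against Control gave 0.05 (-0.15 to 0.24, adjusted p = 0.851) and High against Control -0.09 (-0.29 to 0.10, adjusted p = 1).

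In the FPKM column Bdnf stood higher and differed more. Scaled FPKM was 6.94, 8.50 and 11.5 in Control (lowest, median, highest), 8.29, 10.7 and 15.4 in Low, and 3.71, 7.36 and 12.3 in High. With this column Low exceeded High by a log2 fold change of 0.56 (0.22 to 0.90, limma adjusted p = 0.0197), and 3 of 8 Low rats lay above all High rats. In that fit, run with the minimum applied to scaled FPKM, 3 of the 6 genes passed in Low against High, where 16.8% of 15699 genes did. In Low against Control 1 of 6 passed, against 11.8%, and in High against Control 0 of 6, against 0% (370 genes had an unadjusted p under 0.05).

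Several promoters drive Bdnf transcripts that share the coding exon, and the RefSeq table lists 10 curated transcripts of it, the most of the 6 genes. Because Npas4 and other activity genes differed between Low and High, as described further on, the 1 of its 6 listed start sites with the core of a cyclic-AMP response element is shown. The 250 bases before this start (GRCr8, chr3:116637608-116637857, plus strand, from RefSeq) carry the motif TGACG on the opposite strand, in capitals as CGTCA.
Bdnf start site 4: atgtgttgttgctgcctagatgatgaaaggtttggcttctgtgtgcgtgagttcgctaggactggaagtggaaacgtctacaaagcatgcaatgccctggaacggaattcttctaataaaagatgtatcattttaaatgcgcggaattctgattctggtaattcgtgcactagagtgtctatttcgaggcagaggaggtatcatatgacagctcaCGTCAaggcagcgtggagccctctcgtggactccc
TGACG or CGTCA occurred in 18.2% of the 33469 windows of 250 bases in the promoter table, so a match is common. The tables give no values per transcript, so use of this start site was not measured.

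Ntf3 (ENSRNOG00000019716, chromosome 4, 158636884 to 158705886, minus strand) encodes neurotrophin-3, the ligand of TrkC. Scaled coverage was 0.543, 1.14 and 1.5 in Control (lowest, median, highest), 0.655, 1.31 and 2.07 in Low, and 0.70, 1.24 and 3.51 in High. High replicates 66, 67 and 69 lay above all rats of the other groups, while the other 5 High rats lay within their range. Log2 fold changes were 0.21 for Low against Control (-0.17 to 0.58, limma adjusted p = 0.573), 0.32 for High against Control (-0.05 to 0.69, adjusted p = 0.999) and -0.11 for Low against High (-0.49 to 0.26, adjusted p = 0.703). Ntf4, which encodes neurotrophin-4, was listed at 0 in 6 of 24 rats and was too low to be tested.

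Ntrk2 (ENSRNOG00000018839, chromosome 17, 5933729 to 6244676, minus strand) encodes TrkB. On scaled coverage it was the least variable of the 6 genes, with a coefficient of variation of 14.7% over the 24 rats against a median of 17% over all genes tested. Values were 15.5, 23.8 and 27.4 in Control (lowest, median, highest), 15.5, 25.5 and 28.5 in Low, and 20.1, 21.8 and 25.8 in High. One Control and 1 Low rat lay near 15.5, below all High rats. Low against Control gave a log2 fold change of 0.04 (-0.19 to 0.26, limma adjusted p = 0.885), High against Control -0.06 (-0.29 to 0.16, adjusted p = 0.999) and Low against High 0.10 (-0.13 to 0.33, adjusted p = 0.561).

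With scaled FPKM the same gene passed the threshold. Values were then 102, 148 and 246 in Control, 137, 234 and 259 in Low, and 113, 143 and 166 in High, and 7 of 8 Low rats lay above all High rats. Low exceeded Control by a log2 fold change of 0.52 (0.22 to 0.81, limma adjusted p = 0.0168) and High by 0.64 (0.35 to 0.94, adjusted p = 0.00215). Without libraries 56 to 62, which leaves 2 Low and 7 Control rats, the Ntrk2 fold changes on scaled FPKM were 0.54 (adjusted p = 0.111) and 0.57 (adjusted p = 0.0729). With those libraries as a covariate they fell to 0.30 (adjusted p = 0.52) and 0.38 (adjusted p = 0.32). Ntrk2 was thus called in 1 column and not in the other.

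Ntrk3 (ENSRNOG00000018674, chromosome 1, 139890560 to 140262503, minus strand) encodes TrkC, the neurotrophin-3 receptor, and was the only one of the 6 genes called on scaled coverage. Scaled coverage was 1.29, 1.90 and 2.35 in Control (lowest, median, highest), 0.860, 1.28 and 1.46 in Low, and 1.86, 2.19 and 2.81 in High. All 8 Low rats lay below all 8 High rats. The share of all genes tested whose Low and High rats do not overlap is not given here. Such a separation is therefore not read as particular to a gene. Against Control, 4 of 8 Low rats lay below all Control rats, and the overlap came from Control replicate 56 at 1.29, the next Control rat being at 1.64. The mean was 1.26 ± 0.197 in Low (SD, n = 8), 1.90 ± 0.328 in Control and 2.29 ± 0.320 in High.

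Ntrk3 was lower in Low than in Control by a log2 fold change of -0.35 (SE 0.0899, 95% interval -0.54 to -0.17, limma adjusted p = 0.0171). It was lower in Low than in High by -0.54 (SE 0.0899, -0.73 to -0.36, adjusted p = 0.000174). High against Control was 0.19 (0.00 to 0.37, adjusted p = 0.999). Whether Ntrk3 was called differed with the column and with the libraries fitted. On scaled FPKM, Low against Control fell to -0.06 (-0.24 to 0.12, adjusted p = 0.749), while Low against High was -0.26 (-0.44 to -0.08, adjusted p = 0.0402). Without libraries 56 to 62, scaled coverage gave -0.44 for Low against Control (adjusted p = 0.154) and -0.58 for Low against High (adjusted p = 0.0204). With libraries 56 to 62 as a covariate, the values were -0.29 (adjusted p = 0.373) and -0.46 (adjusted p = 0.0531). The direction of Ntrk3 in Low was downward in these fits, but upward with FPKM as deposited (0.45 and 0.22), a column that raised the median of all genes by 0.51 and 0.49.

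**Figure D2:**
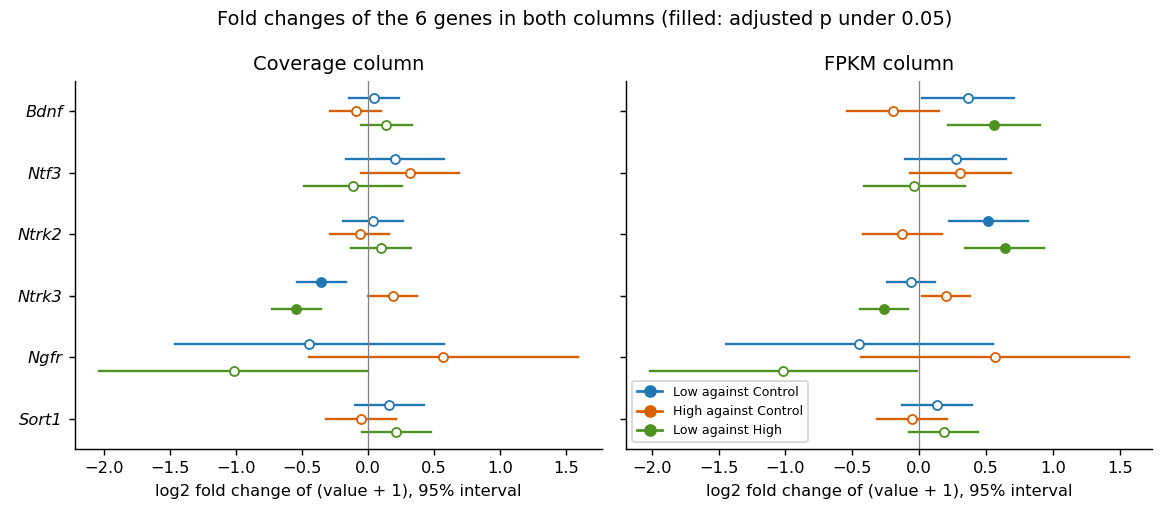
Log2 fold changes of (value + 1) with 95% limma intervals (horizontal axis) for the 6 genes in 3 comparisons, from scaled coverage on the left and scaled FPKM on the right. Filled points have an adjusted p under 0.05, and Bdnf on the left comes from the fit with no filter. Ntrk3 is filled on the left at -0.35 and -0.54, while Ntrk2 at 0.52 and 0.64, Bdnf at 0.56 and Ntrk3 at -0.26 are filled on the right.

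The disagreement between the columns was measured as FPKM per unit of coverage, set to 1 for the median gene of each table. For Sort1 and Ngfr, each with 1 curated RefSeq transcript, it was 1 in every rat. For Ntf3 it lay between 1 and 1.15. The genes with large values were Ntrk2, Bdnf and Ntrk3, with medians of 7.27, 10.5 and 19.5 over the 24 rats. Curated transcripts numbered 2 for Ntrk2, 10 for Bdnf, 3 for Ntrk3 and 4 for Ntf3, an order that the ratios did not follow. FPKM per unit of coverage of Ntrk3 was 16.2, 18.6 and 25.8 in Control (lowest, median, highest), 27.5, 27.8 and 28.3 in Low, and 15.6, 18.4 and 19.8 in High. Low rats were nearly identical to each other and above all others, and the one Control rat close to them, at 25.8, was Control replicate 56.

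For Bdnf and Ntrk2, Low rats lay above all High rats in that ratio, but Control replicate 56 lay within the Low range. For Bdnf, Low rats had 12.3 to 12.4, Control rats 8.81 to 12.3 and High rats 8.37 to 11.1. For Ntrk2, Low rats had 9.54 to 10.1, Control rats 5.84 to 9.60 and High rats 5.86 to 7.44. Of the 3583 genes with a mean ratio at least 5% above 1, limma called 75.6% in Low against Control, 0.0279% in High against Control and 77.9% in Low against High. All 4 of the genes described here that entered that fit were called in both Low comparisons and none in High against Control. In Low against Control, 2285 of those genes had a higher ratio and 423 a lower one, and nothing particular to these 4 genes is read from their calls. The 3583 genes are a part of the 16118 with coverage in every rat, chosen because their columns differ. The log2 shift in Low against Control was 0.55 for Ntrk3 (limma adjusted p = 6.2e-07), 0.51 for Ntrk2 (1.8e-06), 0.34 for Bdnf (5.3e-05) and 0.16 for Ntf3 (7.4e-10). It was of the same size without libraries 56 to 62 (0.62, 0.60, 0.39 and 0.14), so it was also present in Low replicates 63 and 64.

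**Figure D3:**
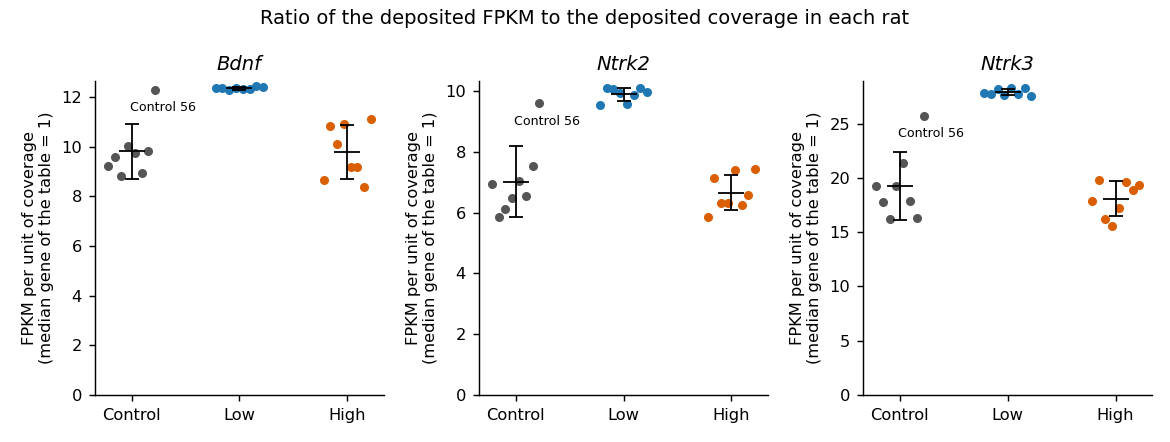
FPKM per unit of coverage (vertical axis, median gene of each table set to 1) of Bdnf, Ntrk2 and Ntrk3, 1 point per rat, with mean and SD over 8 rats per group. Low rats cluster at 12.3 to 12.4, 9.54 to 10.1 and 27.5 to 28.3, and Control replicate 56 is the Control rat nearest to them.

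Assembled loci overlapped the 6 genes as well. In the 16 Control and High tables, same-strand loci lay over Bdnf, Ntrk2, Ntrk3 and Sort1 in 16 tables, over Ntf3 in 15 and over Ngfr in 11. When their coverage was added, weighted by length, the High against Control log2 difference of Ntrk3 moved from 0.19 to 0.59, a value given with no test, and those of the other 5 genes moved by less than their spread. In 14 of the 96 pairs of gene and table, 4 of them for Ntrk3, such a locus had the coverage of the gene itself within 0.1%, so the same reads may be counted again in this sum. Loci on the opposite strand were 73 within Ntrk2, 60 within Ntrk3 and 21 within Sort1 in Control replicate 56, against at most 2, 1 and 1 in the other 15 tables.

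Ngfr (ENSRNOG00000005392, chromosome 10, 83389847 to 83408061, minus strand) encodes p75NTR and was the most variable of the 6 genes. Its scaled coverage ran from 0.177 to 12.9 over the 24 rats, a 73.0-fold range and a coefficient of variation of 137%. It was 0.271, 0.974 and 6.13 in Control (lowest, median, highest), 0.199, 0.756 and 4.22 in Low, and 0.177, 2.03 and 12.9 in High. The lowest and the highest rat were both High rats, and the groups overlapped throughout. Low against Control gave a log2 fold change of -0.45 (-1.47 to 0.57, limma adjusted p = 0.661), High against Control 0.57 (-0.45 to 1.59, adjusted p = 0.999) and Low against High -1.02 (-2.04 to 0.00, adjusted p = 0.173). Scaled FPKM gave nearly the same values (-0.45, 0.57 and -1.02). Single rats moved these values: Low against Control ran from -0.66 without Low replicate 60 to -0.23 without Control replicate 56. High against Control ran from 0.30 without High replicate 66 to 0.81 without High replicate 72.

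The rats high in Ngfr were high in cholinergic genes. Forebrain cholinergic neurons are known to carry p75NTR together with the acetylcholine synthesis and transport genes Chat, Slc5a7 and Slc18a3. High replicates 66 and 67 had the highest Ngfr (12.9 and 12.1), with Chat at 10.7 and 9.46, all as scaled coverage. Control replicate 56 followed, at 6.13 for Ngfr and 6.61 for Chat. At the other end, High replicate 72 had 0.177 for Ngfr and 0.548 for Chat. The 6 rats highest in Ngfr were also the 6 highest in the summed scaled coverage of the 3 cholinergic markers, which are all above 0 in these data.

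**Figure D4:**
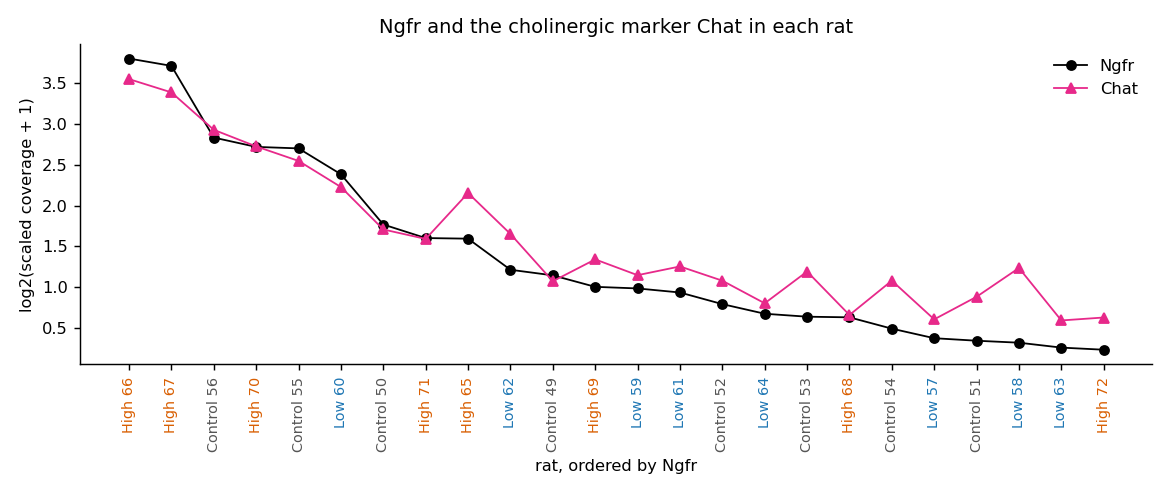
Log2(scaled coverage + 1) of Ngfr and Chat (vertical axis) in each of the 24 rats, ordered by Ngfr and labelled by group and replicate. Both genes fall from High replicates 66 and 67 on the left to High replicate 72 on the right, and rats of all groups are spread along the order.

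Control rats had 3.69 to 23.7 for that sum, Low rats 2.63 to 13.7 and High rats 1.90 to 34.9, so the groups overlapped for it as they did for Ngfr. The striatal markers (6 of 6 in the tables, Drd1 and Drd2 among them) summed to 404 to 904 (Control), 290 to 658 (Low) and 205 to 1456 (High). After each gene was centred on its group means, Ngfr correlated over the 24 rats with Chat (r = 0.97), Slc5a7 (0.92), Slc18a3 (0.92), the GABA synthesis gene Gad2 (0.89) and the dopamine receptor gene Drd1 (0.71). These values are descriptions, given without a test, because all genes of a rat share its library, depth and piece of tissue. The genes most like Ngfr among 11824 compared were Baiap3 (0.96), the acetylcholinesterase gene Ache (0.92) and the calcium channel subunit gene Cacna2d2 (0.92). The part of cholinergic and striatal tissue in the group values of Ngfr was not tested.

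Sort1 (ENSRNOG00000031814, chromosome 2, 211078334 to 211156312, plus strand) encodes sortilin, a Vps10p-domain sorting receptor that carries proneurotrophins and binds them with p75NTR. Scaled coverage was 119, 210 and 245 in Control (lowest, median, highest), 182, 228 and 250 in Low, and 133, 187 and 241 in High. The groups overlapped, and the lowest rat was Control replicate 49. Low against Control gave a log2 fold change of 0.16 (-0.10 to 0.42, limma adjusted p = 0.523), High against Control -0.05 (-0.32 to 0.21, adjusted p = 0.999) and Low against High 0.22 (-0.05 to 0.48, adjusted p = 0.265). The related receptors Sorcs1, Sorcs2 and Sorcs3 were tested as well, and 0 of 3 passed in any comparison (limma, 0 genes). Their median log2 fold change in Low against High was 0.04, beside 0.09 over all genes tested.

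Correlations with cell type markers differed between the other genes. Bdnf correlated with the excitatory neuron marker Slc17a7 (r = 0.73, n = 24 rats, centred on group means) and negatively with Ngfr (-0.72) and Chat (-0.69). The other neuron markers gave values with Bdnf from -0.52 for Gad2 and -0.47 for Gad1 to 0.55 for Syt1. Sort1 correlated with the synaptic vesicle gene Syt1 (0.85) and with Bdnf (0.57). Its values with the other neuron markers ran from -0.09 for Gad1 to 0.67 for Slc17a7. Ntrk2 was highest with the glial genes Cx3cr1 (0.89), Aldh1l1 (0.87), Pdgfra (0.86) and Slc1a3 (0.83). Other glial markers differed: Aif1 and P2ry12 of microglia gave 0.04 and 0.39, and the oligodendrocyte markers -0.11 to 0.07. The GABA synthesis gene Gad2 (0.69) and the endothelial gene Flt1 (0.72) were high with Ntrk2 as well. Ntf3 was highest with the astrocyte gap junction gene Gja1 (0.82), while the other 4 astrocyte markers gave 0.60 to 0.76. Markers of other cells came close, with Pdgfra and Csf1r at 0.77 and Drd1 at 0.73. The neuron markers ran from -0.79 for Snap25 to 0.56 for Gad2, and the oligodendrocyte markers from 0.04 to 0.20. For Ntrk3 the highest value was 0.54, with the astrocyte gene Aldh1l1, while the other 4 astrocyte markers gave 0.06 to 0.26. The ligand and its own receptor were not alike, with r = -0.16 for Bdnf and Ntrk2 and 0.38 for Ntf3 and Ntrk3. As for Ngfr, no test was made, since these values share library and tissue.

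**Figure D5:**
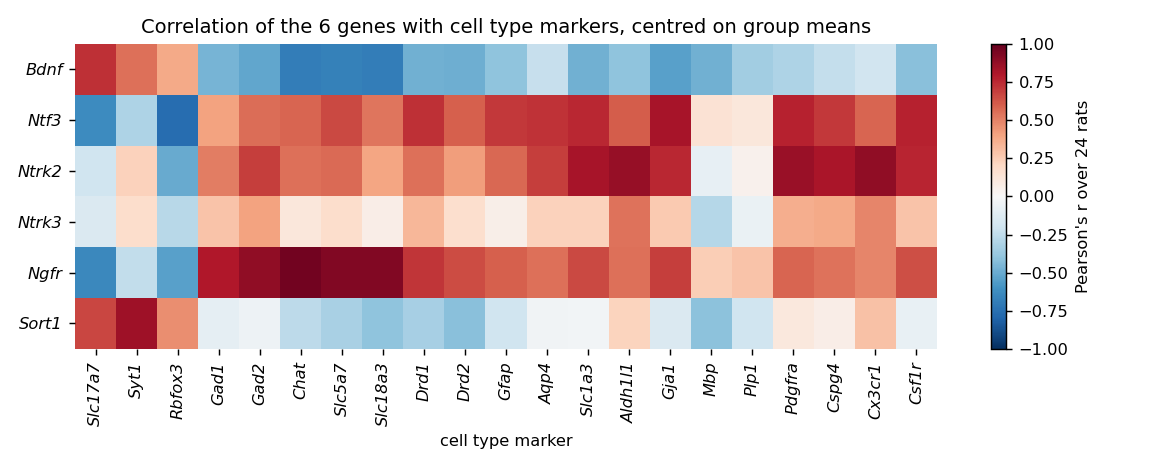
Pearson's r over 24 rats (colour) between log2(scaled coverage + 1) of the 6 genes (rows) and cell type markers (columns), each centred on its group means. Ngfr is darkest for Chat at 0.97, and Ntrk2 is positive for Aldh1l1 at 0.87. Bdnf is positive for Slc17a7 at 0.73 and negative for Gad2 at -0.52 and Chat at -0.69.

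By the same measure, the genes most like Bdnf were Nptx2 (0.84), which encodes a secreted synaptic pentraxin, Adcyap1 (0.83), which encodes the neuropeptide PACAP, and Slc4a11 (0.78). Ntf3 was nearest to Mlc1 (0.85), Sema4g (0.84) and Gipr (0.84). For Ntrk2 they were Myo10 (0.97), Slc4a4 (0.96) and Nacc2 (0.96), and for Sort1 Lmtk2 (0.97), Atrnl1 (0.96) and Uhrf1bp1l (0.96). Ntrk3 was the least like any other gene, its nearest being Myt1l (0.76), Lrrfip1 (0.74) and Nsun7 (0.73).

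Genes around the pathway were read from the same limma fits. Over 6 lists with 60 tested genes, 1 gene (1.67%) passed in Low against Control, 0 in High against Control and 11 (18.3%) in Low against High, beside 6.11%, 0% and 11.7% of all genes tested. Npas4 is on 2 of the lists and is counted once in these totals. Among 19 adaptors and effectors of Trk receptors, which pass the signal to the Ras and phosphoinositide 3-kinase pathways, 2 were higher in Low than in High and 0 were lower. They were Pik3ca, a kinase catalytic subunit (0.31, adjusted p = 0.00492), and Grb2, an adaptor (0.21, adjusted p = 0.0430). Neither call was kept without libraries 56 to 62, with them as a covariate or with no scaling, where 0 of 19 passed in limma. With scaled FPKM and with median-of-ratios scaling 1 of 19 passed. Fewer of all 15644 genes were called too: 20 higher and 321 lower without those libraries, 31 and 323 with the covariate, and 72 and 1061 with no scaling. With scaled FPKM 1479 were higher and 1068 lower, and with median-of-ratios scaling 373 and 1283. The median of that list was 0.14, beside 0.09 over all genes, and -0.07 beside -0.11 with no scaling.

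Of 11 tested partners and cleavage enzymes of p75NTR, 0 passed in any comparison in limma on scaled coverage. With median-of-ratios scaling, 1 of 11 was lower in Low than in Control and 1 of 11 lower in Low than in High. Of all 15644 genes, 931 and 1283 were lower in these comparisons, and 155 and 373 were higher. Of 11 tested genes for processing of proneurotrophins, 1 was higher in Low than in High, the neuronal serpin gene Serpini1, which encodes an inhibitor of tissue plasminogen activator (0.41, adjusted p = 0.0142). Under the same 3 alternatives 0 of 11 passed. Furin and the proprotein convertase genes did not pass. Of 8 factors that act on Bdnf promoters, 1 passed, the activity-induced factor Npas4, in Low against High (1.66, adjusted p = 0.000288).

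The activity genes differed most. In Low against High, 8 of 9 were higher in Low, with a median log2 fold change of 1.11 over the 9, beside 0.09 over all genes. They included Arc (1.64, limma adjusted p = 0.000925), Egr2 (1.42, adjusted p = 0.00438), Junb (1.15, adjusted p = 0.000194) and Fos (1.09, adjusted p = 0.00551), and Fosb was the one that did not pass. In Low against Control, 1 of 9 passed, Junb (0.71, limma adjusted p = 0.0274), and 0 of 9 passed without libraries 56 to 62, with them as a covariate or with no scaling. In that comparison 2 of 9 passed with scaled FPKM and 1 of 9 with median-of-ratios scaling. Of all 15644 genes, 886 were higher and 879 lower with scaled FPKM, and 155 and 931 with median-of-ratios scaling. Without libraries 56 to 62, with the covariate and with no scaling, 9, 14 and 34 were higher and 318, 347 and 594 lower. Npas4 scaled coverage was 8.93, 16.1 and 24.3 in Control (lowest, median, highest), 16.2, 26.1 and 46.2 in Low, and 2.84, 10.1 and 13.5 in High, where all 8 Low rats lay above all 8 High rats. As for Ntrk3, the share of all genes with no overlap is not given, so nothing particular to Npas4 is read from this. Without libraries 56 to 62, 4 of the 9 activity genes passed in Low against High, and 6 of 9 passed with those libraries as a covariate. With no scaling 7 of 9 passed and with median-of-ratios scaling 8 of 9, all higher in Low. Of all 15644 genes, 72 were higher and 1061 lower with no scaling, and 373 and 1283 with median-of-ratios scaling. Bdnf, which activity is known to induce, gave 0.14 in Low against High on scaled coverage and 0.56 on scaled FPKM, as above. Adding 1 lowers the first of these values more. Its r with the activity genes over the 24 rats ran from 0.21 for Dusp1 to 0.56 for Egr1, after centring on group means.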

How the data were processed

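Frontal cortex RNA of 24 rats in 3 groups of 8 was analysed, with groups taken from the sample labels. Per the labels, libraries were made with a stranded mRNA kit, and the submitters' processing notes name FastQC, Trimmomatic, TopHat2, StringTie and the build mRatBN7.2. The sources used here give no versions. Gene positions reach 282724300 on chromosome 1, so the build of the tables was not settled and positions are those of the tables. The authors deposited, per gene, the coverage signal (mean read depth per base, not scaled) and FPKM (per kilobase and per 1000000 fragments, as StringTie gives it). The deposited TPM column, another value of the same program, was not used in tests.

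Rows with an Ensembl rat identifier were kept and summed per identifier. Coverage was divided by its sum over these genes and multiplied by 1000000, and genes with a mean of at least 1 were kept. Limma 3.58.1 in R 4.3.3 (trend and robust) was run on log2(value + 1), with all 24 rats in 1 fit, two-sided, with Benjamini-Hochberg adjustment over all genes tested. Exact Wilcoxon rank-sum tests enumerated all 12870 splits of 8 against 8. Both were tested on simulated data. Each label is taken as 1 rat, and p-values measure the spread between these rats. Correlations are Pearson's r of log2(value + 1), centred on group means, and likeness was ranked over genes whose mean reached 5. Other steps used Python 3.11.15 with scipy 1.17.1, pandas 2.3.3, numpy 2.4.6 and matplotlib 3.10.9.

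The 6 genes, the lists, the markers and the alternatives were chosen with earlier results of these data known. Some genes of the pathway are not reported here. Named genes are the 6, genes of the lists past the threshold (up to 6 per list and comparison), the 3 genes most like each of them, and markers. Bdnf, whose mean is under the minimum, got its likeness values outside that rule, and Ntf4, the Sorcs genes that did not pass and single markers were named after their values were seen. The alternatives were a pseudocount of 0.1, a minimum mean of 5 or none, 3 other scalings, the FPKM column with or without division by its sum, only the groups compared, Wilcoxon tests, libraries 56 to 62 as a covariate, each rat left out, and same-strand assembled loci added. Fits without libraries 56 to 62, those joined with the FPKM column, and the minimum applied to scaled FPKM were chosen after seeing the data.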

Additional observations from a re-analysis of the deposited data

Results flagged for a closer look

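Ntrk3 differed between the Low and High groups on scaled coverage, by a log2 fold change of -0.54 (limma adjusted p = 0.000174), with all 8 Low rats below all 8 High rats. Low concentration and the kind of table cannot be told apart in this difference. In this comparison 11.7% of all genes tested were called, and the share of genes with no overlap is not given here. The Ntrk3 difference was no longer called with libraries 56 to 62 as a covariate (-0.46, limma adjusted p = 0.053) or without those libraries on scaled FPKM (-0.32, adjusted p = 0.14). Without those libraries on scaled coverage it was still called (-0.58, adjusted p = 0.0204).

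Single rats stood apart from their group by Dixon's test at the 95% level in 4 of 36 sets of 8 values. Chance alone flags about 1 in 20 only where sets are independent and values are normally distributed. These sets count each gene in both columns, and Ngfr had nearly the same values in each, so its flags are not separate observations. Whether the values were normally distributed was not tested, and the count is not read as more than chance. For Ntrk3, Low replicate 57 was lowest on scaled coverage at 0.86, with the next Low rat at 1.18. The same rat was lowest in Ntrk2 on scaled FPKM, at 137, with the next at 203. Low replicate 60 was highest in Ngfr, at 4.22 on scaled coverage (next 1.32) and at 3.91 on scaled FPKM (next 1.22). In that rat Chat was at 3.68. Their part in the results was not tested beyond leaving each rat out.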

How the results depend on the processing

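On scaled coverage, 1 of the 6 genes passed in Low against Control, 0 in High against Control and 1 in Low against High. High against Control stayed at 0 in every limma and Wilcoxon alternative run. Low against Control gave 0 with a minimum mean of 5 (Ntrk3 is then not tested), no scaling, only the groups compared, exact Wilcoxon tests (Ntrk3 adjusted p = 0.064), and libraries 56 to 62 left out or as a covariate, in either column. It gave 4 with FPKM as deposited, where 12634 of all 15644 genes tested were called higher and 625 lower. FPKM divided by its sum kept a count of 1, but that gene was Ntrk2, beside 886 of all genes higher and 879 lower. On scaled coverage, 9 of all genes were called higher and 318 lower without libraries 56 to 62. With those libraries as a covariate, 14 were higher and 347 lower. Low against High gave 0 with a minimum mean of 5, with those libraries as a covariate in either column, and without them on FPKM. Of all genes, 31 were called higher and 323 lower with the covariate on scaled coverage, and 411 and 350 without those libraries on FPKM. Low against High gave 3 with FPKM as deposited, where 12583 of all genes were called higher and 733 lower. It gave 2 with FPKM divided by its sum (1479 of all genes higher, 1068 lower) and 3 with the minimum applied to that column (16.8% of all genes).

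With FPKM as deposited, Ntrk3 turned to 0.45 and 0.22 in the Low comparisons and Ntf3 to 0.16 in Low against High. Other changes of sign were in values not called. In Low against Control, Ntf3 became -0.02 with the covariate, -0.08 without libraries 56 to 62 and -0.03 without them on FPKM. Ntrk2 became -0.02 with median-of-ratios scaling and without libraries 56 to 62, and -0.07 with the covariate. With no scaling, Ntrk2 was 0.12 and Sort1 0.13 in High against Control, and Ntrk2 was -0.11 and Sort1 -0.00 in Low against High. With the covariate, Ntrk2 was -0.02 in Low against High.

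Leaving out each rat in turn kept the counts at 1, 0 and 1, with Ntrk3 between -0.40 and -0.31 and between -0.57 and -0.50. Ranges that crossed 0 were -0.04 to 0.12 for Ntrk2 in Low against Control (below 0 without Control replicate 49), -0.16 to 0.02 for Sort1 in High against Control (above 0 without High replicate 67) and -0.19 to 0.01 for Ntf3 in Low against High (above 0 without High replicate 67). The causes were not tested. Low genes such as Bdnf and Ntf3 are limited by depth, which the tables give only as coverage. No paired analysis was possible because the groups share no replicate numbers.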
